A study of Mus musculus with 18 samples.

Results

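The mature miRNAs miR-124-3p, miR-124-5p, miR-128-3p, miR-138-5p, miR-132-3p and miR-212-3p, all with known roles in neurons, were followed through small RNA libraries of astrocytes, microglia and neurons from mouse brain. They were chosen by name, as the rows of the count table typed as mature miRNA whose identifier is one of these 6, out of 1978 mature miRNAs and 203513 features in all. The mice were 10 months old on a C57BL/6 background and were either wild type (WT) or homozygous for Atxn2-CAG100-KIN (KIN), an expanded CAG repeat knocked into Atxn2 that models spinocerebellar ataxia type 2, and none was treated. Cells of a single dissociated brain were separated with magnetic beads in sequence, microglia by CD11b, then astrocytes by ACSA-2, and neurons as the cells left after the remaining non-neuronal and endothelial cells had been bound, so the neuron fraction was defined by what was removed. Each of the 6 groups (3 fractions, 2 genotypes) held 3 libraries, 18 in all. Whether a replicate number marks one brain is not stated in the labels, so the p-values measure the spread between these libraries.

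A miRNA is a short RNA cut from a hairpin precursor that pairs with target mRNAs mainly through its seed, bases 2 to 8 from the 5′ end, and lowers their translation and stability. The 3p and 5p arms come from opposite sides of the hairpin, and usually one of them is kept. miR-124 is the most abundant miRNA of neurons and represses genes of non-neuronal cells, miR-128 is brain-enriched and limits neuronal excitability, miR-138 is found at dendrites and restrains spine growth, and miR-132 and miR-212 are made from a shared transcript that neuronal activity induces through CREB.

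The sequences are shown because the read counts of the 6 miRNAs rest on how well these letters separate them from each other and from other miRNAs. They are given as deposited, as DNA letters 5′ to 3′, with the seed in capitals.
mmu-miR-124-3p: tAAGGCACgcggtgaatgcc
mmu-miR-124-5p: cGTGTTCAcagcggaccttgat
mmu-miR-128-3p: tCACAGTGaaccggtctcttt
mmu-miR-138-5p: aGCTGGTGttgtgaatcaggccg
mmu-miR-132-3p: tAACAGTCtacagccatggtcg
mmu-miR-212-3p: tAACAGTCtccagtcacggcca
miR-132-3p and miR-212-3p share their seed and 17 of 22 positions, the closest pair among the 6. miR-128-3p shares its seed with mmu-miR-6539, which had 0 counts, and no other miRNA in the table carries the seed of miR-124-3p, miR-124-5p or miR-138-5p. The sequences of miR-128-3p, miR-138-5p, miR-132-3p and miR-212-3p were identical to the RefSeq entries (GRCm38.p6), and no RefSeq entry was matched for the arms of miR-124. miR-124-3p is 20 bases long and the authors kept reads of 20 bases or more, so any shortened copy of this miRNA was discarded, while the others, at 21 to 23 bases, could lose 1 to 3 bases and still be counted.

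Positions in GRCm39, the build that mm39 also names, came from matching these sequences to annotated hairpins. miR-124-3p is encoded by 3 hairpin genes, on chromosome 14 (64828158 to 64828177, plus strand, Mir124a-1, inside an exon of the long noncoding RNA Mir124a-1hg), on chromosome 3 (17849887 to 17849906, plus strand, Mir124a-2, inside an exon of Mir124-2hg) and on chromosome 2 (180535876 to 180535895, plus strand, Mir124a-3, in an intron of 2810461L16Rik). miR-124-5p lies on the same hairpins, at 64828119 to 64828140, 17849850 to 17849871 and 180535838 to 180535859. miR-128-3p is encoded by 2 hairpin genes, Mir128-1 in an intron of R3hdm1 on chromosome 1 (128130141 to 128130161, plus strand) and Mir128-2 in an intron of Arpp21 on chromosome 9 (111947712 to 111947732, minus strand). miR-138-5p is encoded by Mir138-1 in an intron of 9530059O14Rik on chromosome 9 (122511963 to 122511985, plus strand) and by Mir138-2 in an exon of C78859 on chromosome 8 (95050940 to 95050962, plus strand). miR-132-3p (75064549 to 75064570) and miR-212-3p (75064269 to 75064290) lie next to each other on the plus strand of chromosome 11, both in an exon of the long noncoding RNA 1700016P03Rik.

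Library totals ran from 1211118 to 4316748 counts, and the WT neuron libraries were the shallowest, at 1211118 to 1956491. Mature miRNAs took 5.05% to 10.3% of the counts in astrocytes, 5.09% to 8.45% in microglia and 0.964% to 2.13% in neurons. Summed fragments of 7 astrocyte transcripts lay at 80.0 to 279.5 CPM (counts per 1000000 counts of the library) in astrocyte libraries and at most at 11.8 CPM elsewhere, 7 microglia transcripts at 62.6 to 148 CPM in microglia and at most at 3.41 CPM elsewhere, and 13 neuron transcripts at 19.4 to 71.0 CPM in neurons, against 6.69 to 32.8 CPM in astrocytes and 0.233 to 18.5 CPM in microglia. The astrocyte transcripts Gfap and Aldoc had 0 counts in WT neurons, and the neuron transcripts Rbfox3 and Nefh had 0 counts in KIN neurons. In WT neurons these 2 had counts in replicate 2 only (0.511 and 30.7 CPM). The rest of the 13 neuron transcripts had counts in KIN neurons. WT replicate 2 stood apart in astrocytes and microglia (chi-square per degree of freedom against the other replicates 28.3 to 34.1 in astrocytes and 65.5 to 66.2 in microglia, with 5.64 and 6.60 between the other two), as did KIN replicate 1 in microglia (116 to 121, with 8.99 between the other two), and all pairs of WT neuron libraries were far apart (63.1 to 129). The study describes littermate pairs of the same sex, 2 male and 1 female, but Xist had 4 to 5 counts in the 3 libraries of KIN replicate 1 and 12 to 102 in the other 15. The labels give no sex, and whether the comparisons of KIN with WT carry a difference of sex was not tested.

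The 6 miRNAs were most abundant in the astrocyte fraction, not in the neuron fraction. Together they made up 2.44% to 3.9% of mature miRNA counts in WT astrocytes, 0.557% to 1.27% in WT neurons and 0.127% to 0.329% in WT microglia. In KIN libraries the shares were 1.25% to 1.98% in astrocytes, 0.682% to 0.874% in neurons and 0.0702% to 0.0883% in microglia. Within each genotype the ranges of the 3 fractions did not overlap, and astrocytes came first and microglia last. Not each of the 6 followed this order. Per 1000000 mature miRNA counts, miR-124-5p averaged 61.4 in WT astrocytes (46 counts) and 122 in WT neurons (9 counts). On the same measure miR-132-3p and miR-212-3p overlapped between these groups. Since the fractions are bulk samples, fewer cells of a type and less RNA per cell cannot be told apart. Levels below are in CPM of the library total, and those of different miRNAs compare read counts without regard to ligation bias.

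miR-124-3p accounted for most of the counts of the 6 miRNAs in 5 of the 6 groups (70.7% to 83.4%, and 56.5% in WT microglia) and for 45.1% in KIN microglia. Its level was 1014, 2538 and 1077 CPM in the WT astrocyte libraries, 100.2, 37.7 and 89.7 CPM in WT microglia, and 41.3, 158 and 110.0 CPM in WT neurons. WT astrocytes were thus far above both other fractions in every library, while WT microglia and WT neurons overlapped. Replicate 2 was the highest library in WT astrocytes and WT neurons and the lowest in WT microglia. Among all mature miRNAs of a library, miR-124-3p ranked 7 to 14 in WT astrocytes, 23 to 38 in WT neurons and 61 to 99 in WT microglia, counted from the most abundant.

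miR-128-3p had 248, 493 and 255 CPM in WT astrocytes, 43.8, 19.6 and 52.1 CPM in WT microglia, and 6.61, 51.1 and 10.5 CPM in WT neurons. miR-138-5p had 90.6, 120 and 117 CPM in WT astrocytes, 15.3, 3.45 and 13.4 CPM in WT microglia, and 0.826, 19.4 and 5.89 CPM in WT neurons. In both cases astrocytes were apart from the other fractions and replicate 2 held most of the counts in neurons, 38 of 48 for miR-138-5p. miR-132-3p had 26.1, 73.6 and 32.5 CPM in WT astrocytes, 9.22, 3.74 and 10.1 CPM in WT microglia, and 4.13, 12.8 and 2.62 CPM in WT neurons. miR-212-3p was the rarer product of the shared locus, with 9, 21 and 9 counts in WT astrocytes, 4, 1 and 10 in WT microglia and 0, 2 and 1 in WT neurons. For each of these 4 miRNAs every WT astrocyte library exceeded every WT library of the other fractions, by a narrow margin for miR-212-3p (2.73 against 2.73 CPM between the lowest astrocyte and the highest microglia library, 2.732 and 2.727 before rounding). miR-124-5p, the arm that is usually discarded, had 9, 29 and 8 counts in WT astrocytes, 1, 0 and 0 in WT microglia and 1, 6 and 2 in WT neurons.

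**Figure D1:**
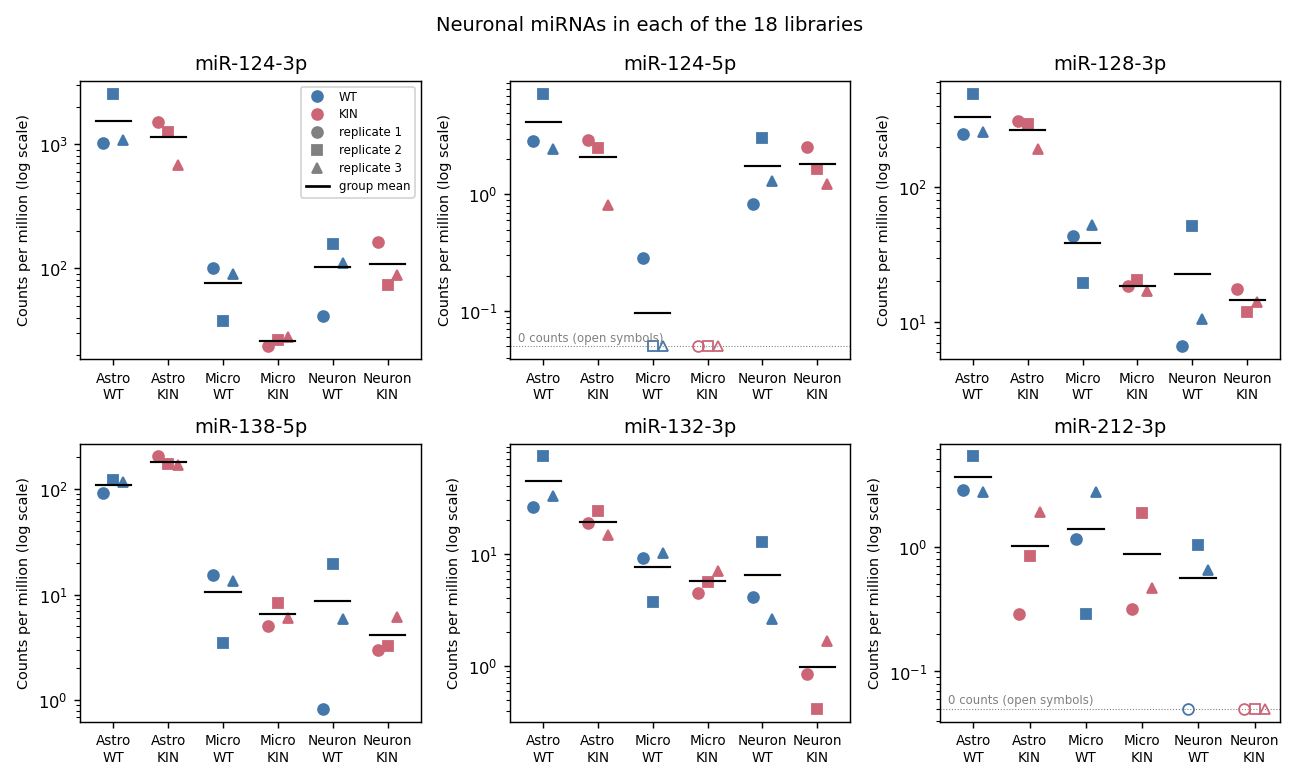
Level of each miRNA in CPM (vertical axis, log scale) in the 6 groups (horizontal axis), with colour for genotype, symbol shape for replicate number, a black line at the group mean and open symbols for libraries with 0 counts. Every WT astrocyte library is above every WT library of the other fractions for 5 of the 6 miRNAs, and every KIN astrocyte library for 4, since miR-124-5p overlaps with neurons and miR-212-3p in KIN with microglia.

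In edgeR's quasi-likelihood test, with calls made where p, adjusted over all features tested, did not exceed 0.05 and the log2 fold change reached 1 in either direction, 5 of the 6 miRNAs were lower in WT microglia than in WT astrocytes. Of all 6397 features tested, 31.5% were called and 19.3% were called lower. The median log2 fold change was -0.22 over all features and -0.28 over mature miRNAs. Of the 418 mature miRNAs tested, 148 were called lower and 94 higher. miR-124-3p differed by -4.32 ± 0.44 (log2 fold change ± SE, n = 3 and 3, adjusted p = 4.41e-05 in edgeR), 19.9-fold. miR-138-5p (-3.31 ± 0.41), miR-128-3p (-3.07 ± 0.38) and miR-132-3p (-2.48 ± 0.49) followed, with edgeR adjusted p = 0.000181, 0.00016 and 0.00299. miR-124-5p was called as well, but on 1 count in microglia against 46 in astrocytes, a ratio of 46.9 with a counting interval of 8.00 to 1890. It reached the count minimum only through the astrocyte libraries, where it was high, so this call is not support for the pattern. miR-212-3p was not called (-1.31 ± 0.63, edgeR adjusted p = 0.126). The 5 calls held with each of the other settings tried and without any single library.

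WT neurons were also below WT astrocytes for 5 of the 6 miRNAs, against 28.7% of all 5916 features called and 18.5% called lower. The differences were -4.12 ± 0.62 for miR-124-3p (edgeR adjusted p = 0.00293), -4.04 ± 0.79 for miR-128-3p (edgeR adjusted p = 0.00773), -3.76 ± 0.78 for miR-138-5p (edgeR adjusted p = 0.00973) and -2.92 ± 0.70 for miR-132-3p (edgeR adjusted p = 0.0172). miR-212-3p was called at an adjusted p of 0.0341 in edgeR on 3 counts in neurons against 39 in astrocytes, a ratio of 5.86 with a counting interval of 1.86 to 29.6. It too reached the count minimum only through the astrocyte libraries, so this call is not support for the pattern. miR-124-5p differed by -1.39 ± 0.71 and was not called (edgeR adjusted p = 0.155). Mature miRNAs as a class were lower in the neuron libraries, with a median log2 fold change of -2.66 over the 362 tested, against -0.50 over all features. Scaled to mature miRNA counts alone, the 6 values moved up by 2.15 to 2.43: miR-124-3p (-1.70), miR-128-3p (-1.83) and miR-138-5p (-1.61) were still called, while miR-132-3p (-0.58, edgeR adjusted p = 0.450) and miR-212-3p (-0.41, edgeR adjusted p = 0.799) were not, and miR-124-5p turned to 0.95. The call of miR-132-3p was lost without astrocyte WT replicate 2 (-2.11, edgeR adjusted p = 0.0523) or without neuron WT replicate 1 (-2.63, edgeR adjusted p = 0.0574). That of miR-212-3p was lost without any 1 of the 3 astrocyte libraries or without neuron WT replicate 1 or 3 (edgeR adjusted p = 0.0536 to 0.0943). It was also lost with DESeq2 (-2.78, DESeq2 adjusted p = 0.0598).

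Between WT neurons and WT microglia none of the 4 miRNAs with enough counts to be tested was called, against 28% of all 5166 features, while 198 of 343 mature miRNAs were called lower in neurons and 20 higher. miR-124-3p differed by 0.29 ± 0.51 (edgeR adjusted p = 0.695), miR-128-3p by -0.90 ± 0.69 (edgeR adjusted p = 0.354), miR-138-5p by -0.38 ± 0.79 (edgeR adjusted p = 0.743) and miR-132-3p by -0.35 ± 0.61 (edgeR adjusted p = 0.691). The median over mature miRNAs was -2.56. Scaled to mature miRNA counts alone, all 4 values were above 0, at 2.22, 0.86, 1.38 and 1.47 in the same order, and miR-124-3p was called (edgeR adjusted p = 0.00209). As CPM of mature miRNA counts alone, miR-124-3p stood at 4283 to 10164 in WT neurons and 742 to 1938 in WT microglia, without overlap. Without neuron WT replicate 2, the library with 83.8 CPM of oligodendrocyte transcripts against 8.26 and 10.5 CPM in the other two, miR-128-3p was called lower in neurons than in microglia (-2.17, edgeR adjusted p = 0.00444) and miR-124-3p was at -0.041.

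**Figure D2:**
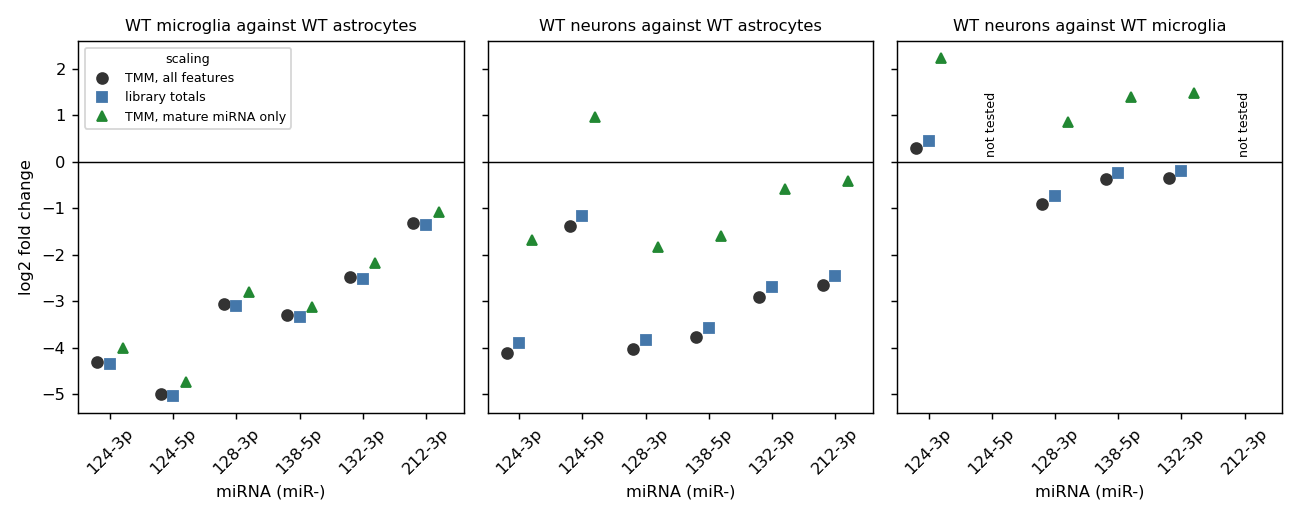
Log2 fold changes between WT fractions (vertical axis) for each miRNA (horizontal axis) under 3 scalings: edgeR's TMM factors from all features (circles), library totals (squares) and TMM factors with library sizes from mature miRNAs only (triangles). In microglia against astrocytes the 3 scalings nearly coincide, while in both comparisons of neurons the scaling to mature miRNAs lifts all values, above 0 for each miRNA tested against microglia.

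The share of miR-124-5p among the counts of both miR-124 arms differed between fractions. It was 0.281%, 0.286% and 0.225% in WT astrocytes and 1.96%, 1.90% and 1.18% in WT neurons. In KIN libraries it was 0.192%, 0.202% and 0.119% in astrocytes and 1.55%, 2.20% and 1.38% in neurons. Every neuron library thus lay above every astrocyte library, though with only 1 to 6 counts of miR-124-5p each. Pooled over a group the share was 0.272% (95% exact Clopper-Pearson interval 0.20% to 0.363%) in WT astrocytes and 1.68% (0.771% to 3.16%) in WT neurons; such intervals cover counting error only. Exact two-sided permutation tests gave p = 0.1 for neurons against astrocytes of either genotype and for KIN against WT in astrocytes, the smallest value that 3 against 3 allows, and p = 1 for KIN against WT in neurons (adjusted over these 4 tests, 0.133 and 1). This comparison was chosen after the values were seen. In microglia the arm had 1 of 809 counts of both arms in WT (Clopper-Pearson interval 0.0031% to 0.687%). In KIN it had 0 of 309, for which the same interval reaches 1.19% and the floor of 3 counts is 0.971%. The shares in astrocytes lay within both intervals.

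KIN and WT were compared in each fraction to ask how the expanded Atxn2 allele bears on these miRNAs. In astrocytes miR-138-5p was higher in KIN and the CREB-induced pair miR-132-3p and miR-212-3p was lower, each without overlap between the genotypes, but none of the 6 passed both criteria of a call. Of all 5694 features, 8.18% were called and 36.7% did not overlap. Of the 6 miRNAs, 3 did not overlap. The median log2 fold change was -0.19 over all features and 0.58 over the 418 mature miRNAs tested, so mature miRNAs as a class were higher in KIN astrocytes (8.43% to 10.3% of counts, against 5.05% to 8.30%).

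miR-138-5p was at 203, 171 and 168 CPM in KIN astrocytes. All 3 values were above the highest WT library, at 120 CPM. The difference was 0.85 ± 0.17 (edgeR adjusted p = 0.0167), under the 1.00 needed for a call and 1.80-fold. Without the filter on low counts it was 1.06 and called, and scaled to mature miRNA counts alone it fell to 0.14 (edgeR adjusted p = 0.663). Without astrocyte WT replicate 2 it was 0.93 (edgeR adjusted p = 0.00127). Without any other 1 astrocyte library it was 0.68 to 0.89, with edgeR adjusted p of 0.0524 to 0.0808. In a single fit of all 18 libraries it was 0.86 (edgeR adjusted p = 0.307). With DESeq2, library totals or the replicate block it was 0.73 to 0.92, with edgeR or DESeq2 adjusted p at most 0.0226. As CPM of mature miRNA counts alone the ranges overlapped (1446 to 1915 in WT, 1868 to 1993 in KIN). The hairpins from which miR-138-5p is cut gave values of the same sign, from reads that had not been placed on a mature miRNA: Mir138-1 had 27.0, 29.6 and 29.5 CPM in WT and 45.1, 37.9 and 43.0 CPM in KIN (0.67 ± 0.20, edgeR adjusted p = 0.0553), and Mir138-2 had 8.91, 14.1 and 11.8 CPM in WT and 22.7, 19.0 and 20.4 CPM in KIN (0.95 ± 0.27, edgeR adjusted p = 0.0505). Neither hairpin overlapped between genotypes, as was so for 36.7% of all features, and neither passed the threshold. Both hairpins contain the mature sequence, so their reads could include reads of miR-138-5p, and they are not separate evidence.

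miR-132-3p was at 18.9, 24.0 and 14.8 CPM in KIN astrocytes, below the lowest WT library at 26.1 CPM. Its difference of -1.09 ± 0.41 missed the threshold (edgeR adjusted p = 0.0942) and was -0.47 without WT replicate 2. miR-212-3p, which needed the WT libraries to reach the count minimum, had 1, 3 and 7 counts in KIN astrocytes against 9, 21 and 9 in WT (-1.70 ± 0.60, edgeR adjusted p = 0.0846). Scaled to mature miRNA counts alone both were called, at -1.67 (edgeR adjusted p = 0.0104) and -2.29 (edgeR adjusted p = 0.0259). Their hairpins moved the same way without passing the threshold, Mir132 by -1.19 ± 0.44 (edgeR adjusted p = 0.0917) and Mir212 by -2.03 ± 0.76 (edgeR adjusted p = 0.0946). These hairpins too contain the mature sequences and are not separate evidence. The ratio of miR-132-3p to miR-212-3p was 12.4 over the pooled WT astrocyte libraries and 18.7 over the KIN ones, and was not tested because 1 of the 3 KIN libraries had 5 counts of both.

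miR-124-3p was at 1513, 1240 and 677 CPM in KIN astrocytes and overlapped with WT (-0.33 ± 0.37, edgeR adjusted p = 0.569). miR-128-3p was at 308, 293 and 191 CPM and overlapped as well (-0.22 ± 0.29, edgeR adjusted p = 0.630). Both signs rested on WT replicate 2, the highest library, since without it the differences were 0.26 and 0.21. Scaled to mature miRNA counts alone they were -0.95 (edgeR adjusted p = 0.0280) and -0.86 (edgeR adjusted p = 0.0240), short of the log2 fold change needed for a call. As CPM of mature miRNA counts alone the genotypes did not overlap, with or without that library: miR-124-3p stood at 20090, 30558 and 17698 in WT and 14625, 13581 and 8027 in KIN, and miR-128-3p at 4919, 5932 and 4184 in WT and 2973, 3214 and 2270 in KIN. miR-124-5p had 10, 9 and 3 counts in KIN against 9, 29 and 8 in WT (-0.93 ± 0.59, edgeR adjusted p = 0.291). Its difference was -0.22 without WT replicate 2. Among mature miRNAs miR-124-3p ranked 19 to 36 in KIN astrocytes and 7 to 14 in WT. Rank needs no scaling factor. Like the scaling to mature miRNAs, it depends on the other miRNAs, which as a class were higher in KIN astrocytes.

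In the same libraries the 13 neuron transcripts summed to 32.8, 9.80 and 31.3 CPM in WT astrocytes and to 6.69, 6.69 and 7.79 CPM in KIN, with Stmn2 at 0 counts in KIN. The 7 astrocyte transcripts summed to 240 to 279.5 CPM in WT and 80.0 to 106 CPM in KIN, and 3 oligodendrocyte miRNAs to 1770 to 3035 CPM in WT and 3351 to 5112 CPM in KIN. The part of these differences in the values of the 6 miRNAs was not tested. Astrocyte WT replicate 2, the library that stood apart, had the most miR-124-3p of all 18 libraries and the fewest neuron transcript fragments of its group. Whether neuron transcripts and neuronal miRNAs vary together across the astrocyte libraries was not tested.

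**Figure D3:**
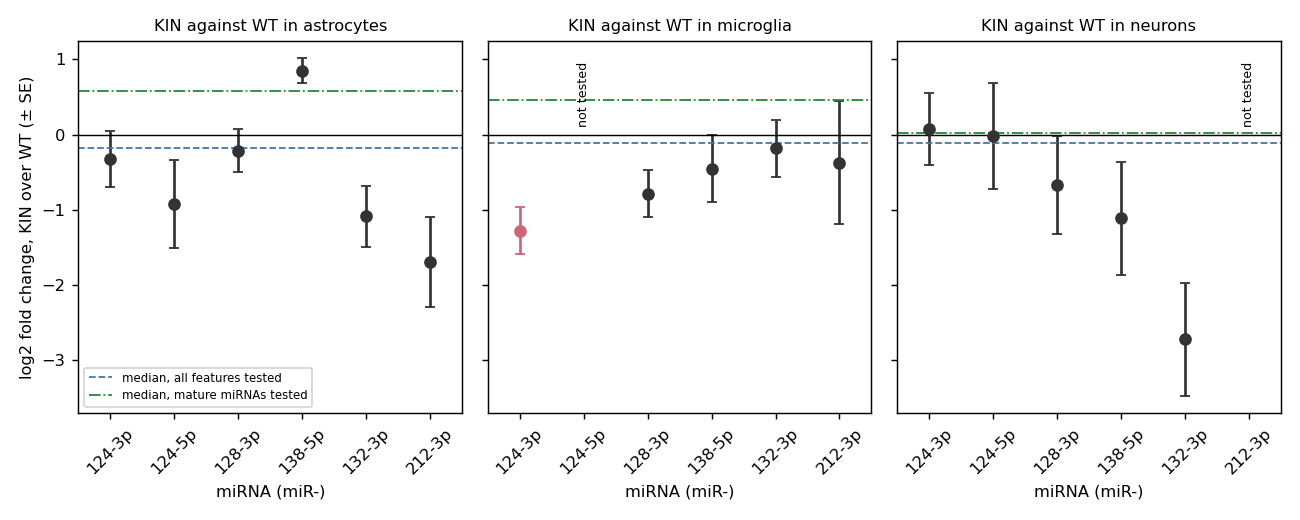
Log2 fold change of KIN over WT with its standard error (vertical axis) for each miRNA (horizontal axis) in the 3 fractions, with the median of all features tested (dashed) and of mature miRNAs tested (dash-dotted); red marks the value that was called. In astrocytes miR-138-5p alone is above 0, and in microglia all 5 tested values are below 0 while the median mature miRNA is at 0.46.

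In microglia miR-124-3p was lower in KIN, and it was the only one of the 6 miRNAs called in any comparison of genotypes. It was at 23.5, 26.4 and 28.2 CPM in KIN microglia, against 100.2, 37.7 and 89.7 CPM in WT. The KIN libraries were close together and all lay below the lowest WT library. The difference was -1.28 ± 0.31 (edgeR adjusted p = 0.0485), 2.43-fold, on 309 counts in KIN and 808 in WT. Among all 4940 features 4.35% were called and 26.6% did not overlap, and the median log2 fold change was -0.11 over all features and 0.46 over the 382 mature miRNAs tested. The call lay close to the threshold. It was lost with library totals as scaling (-1.54, edgeR adjusted p = 0.0534), with the replicate number as a block (-1.20, edgeR adjusted p = 0.117), in a single fit of all 18 libraries (-1.26, edgeR adjusted p = 0.129) and without any 1 library other than WT replicate 2 (-1.15 to -1.32, edgeR adjusted p = 0.0572 to 0.186). Without WT replicate 2, and with DESeq2, no filter on low counts or scaling to mature miRNAs, it was kept (-1.24 to -1.72).

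The hairpins of miR-124 had few counts in microglia and lay on the same side: Mir124a-1 at -1.13 ± 0.49, Mir124a-2 at -1.62 ± 0.51 and Mir124a-3 at -1.24 ± 0.53, with edgeR adjusted p = 0.187, 0.090 and 0.180. These 3 hairpins share the mature sequence and had nearly equal counts over all libraries (1906, 1966 and 1947), so a read could belong to any of them and they are not separate evidence. The neuron transcripts summed to 16.1, 2.88 and 18.5 CPM in WT microglia and to 0.635, 2.32 and 0.233 CPM in KIN, where 5 of the 13 (Syt1, Rbfox3, Nefm, Nefh and Stmn2) had 0 counts. Like miR-124-3p, the neuron transcripts were lower in every KIN library than in every WT library, but on few counts, 13 in KIN and 134 in WT. The margin was narrow, with 2.32 CPM in KIN replicate 2 and 2.88 CPM in WT replicate 2. The part of the neuron transcripts in the values of miR-124-3p was not tested.

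The other 4 miRNAs tested in microglia were not called. miR-128-3p was at 18.4, 20.4 and 17.0 CPM in KIN and overlapped only with WT replicate 2 (-0.79 ± 0.32, edgeR adjusted p = 0.159). Without that library it was called at -1.05 (edgeR adjusted p = 0.0147). Its hairpin Mir128-1 had 17.9, 8.93 and 17.7 CPM in WT and 5.08, 6.49 and 4.89 CPM in KIN, without overlap, and missed the threshold (-1.18 ± 0.32, edgeR adjusted p = 0.0636). This hairpin contains the mature sequence and is not separate evidence. miR-138-5p was at 5.08, 8.34 and 6.05 CPM in KIN, within the range of WT (-0.45 ± 0.45, edgeR adjusted p = 0.616). miR-132-3p was at 4.45, 5.56 and 6.98 CPM (-0.18 ± 0.38, edgeR adjusted p = 0.845) and miR-212-3p had 1, 8 and 2 counts against 4, 1 and 10 (-0.38 ± 0.82, edgeR adjusted p = 0.851). The ratio of miR-132-3p to miR-212-3p was 5.47 over the WT and 6.18 over the KIN microglia libraries and was not tested. miR-124-5p had 1 count in WT and 0 in KIN and could not be compared.

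In neurons none of the 5 miRNAs tested was called, and 0% of the 4535 features were called in edgeR (197 at an unadjusted p of at most 0.05, and 0 with DESeq2). miR-124-3p was at 162, 73.3 and 88.2 CPM in KIN neurons, within the spread of WT (0.07 ± 0.48, edgeR adjusted p = 0.993). miR-124-5p had 6, 4 and 3 counts in KIN and 1, 6 and 2 in WT (-0.02 ± 0.71). miR-128-3p, at 17.5, 11.9 and 14.0 CPM in KIN, and miR-138-5p, at 2.99, 3.30 and 6.19 CPM, overlapped with WT. Their differences of -0.67 ± 0.65 and -1.12 ± 0.75 (edgeR adjusted p = 0.917 for both) rested on neuron WT replicate 2, without which they were 0.69 and 0.19.

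miR-132-3p was the exception to the overlap in neurons, with 2, 1 and 4 counts in KIN and 5, 25 and 4 in WT. All 3 KIN libraries (0.853, 0.412 and 1.65 CPM) were below all 3 WT libraries (4.13, 12.8 and 2.62 CPM), where 10.3% of all features did not overlap. The difference of -2.73 ± 0.76 did not pass the adjustment (edgeR adjusted p = 0.917). It ran from -2.40 to -3.38 without WT replicate 3 or any 1 KIN library. The miRNA reached the count minimum only through WT replicates 1 and 2, in the genotype where it was high. Its p-value is therefore not support for a difference. WT replicate 2 held 25 of the 34 WT counts, and without it or without WT replicate 1 the miRNA did not reach the count minimum and gave no value. miR-212-3p had 0 counts in all KIN neuron libraries and 0, 2 and 1 in WT, so it could not be compared. In these fractions the neuron transcripts summed to 34.7 to 71.0 CPM in WT and 19.4 to 30.9 CPM in KIN.

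**Figure D4:**
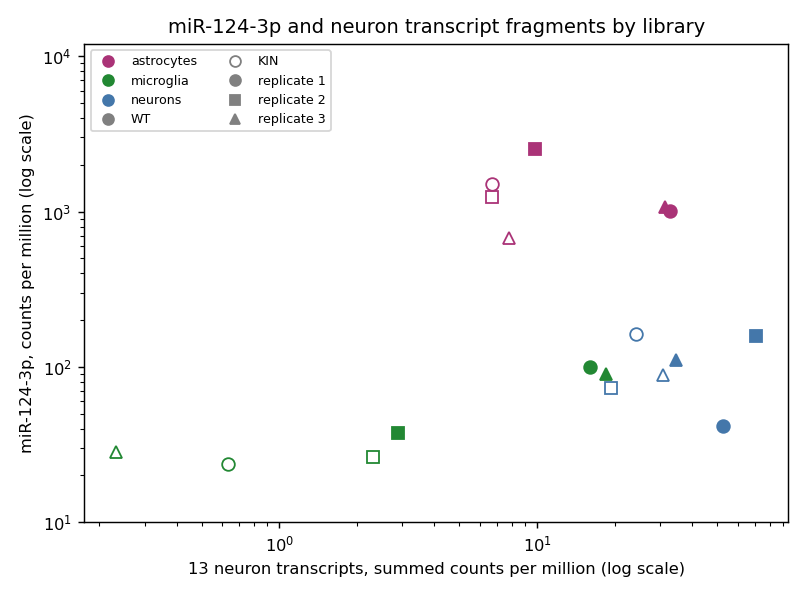
Level of miR-124-3p (vertical axis, CPM, log scale) against the summed fragments of 13 neuron transcripts (horizontal axis, CPM, log scale) in the 18 libraries, with colour for fraction, filled symbols for WT, open symbols for KIN and shape for replicate number. Astrocyte libraries hold 677 to 2538 CPM of miR-124-3p at 6.69 to 32.8 CPM of neuron transcripts, while neuron libraries hold 41.3 to 162 CPM at 19.4 to 71.0 CPM.

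Counting each miRNA per 1000 counts of miR-124-3p in the same library removed any common scaling; this measure was also chosen after the values were seen. miR-132-3p was at 25.7, 29.0 and 30.1 in WT astrocytes and at 12.5, 19.3 and 21.8 in KIN. In microglia it ran the other way, at 92.0, 99.2 and 112 in WT and 189, 211 and 248 in KIN. In WT neurons it had 5 counts beside 50 of miR-124-3p in replicate 1 and stood at 80.9 and 23.8 in replicates 2 and 3, and in KIN neurons it was at 5.26, 5.62 and 18.7. The genotypes did not overlap in any fraction. The higher values in KIN microglia go with the lower miR-124-3p already given there (-1.28) and are not a separate result, since miR-132-3p itself differed by -0.18. miR-138-5p relative to miR-124-3p was higher in KIN in astrocytes (89.3, 47.3 and 108 against 134, 138 and 248) and in microglia (152, 91.6 and 149 against 216, 316 and 215), again without overlap. miR-128-3p relative to miR-124-3p was at 437, 519 and 581 in WT and 784, 772 and 603 in KIN microglia, and overlapped in astrocytes and neurons. In microglia these ratios too carry the fall of miR-124-3p, which was larger than the differences of miR-138-5p (-0.45) and miR-128-3p (-0.79), both below 0. Of 11 exact two-sided permutation tests, 6 gave p = 0.1, the smallest that 3 against 3 allows, and their adjusted value was 0.183, so none could pass.

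**Figure D5:**
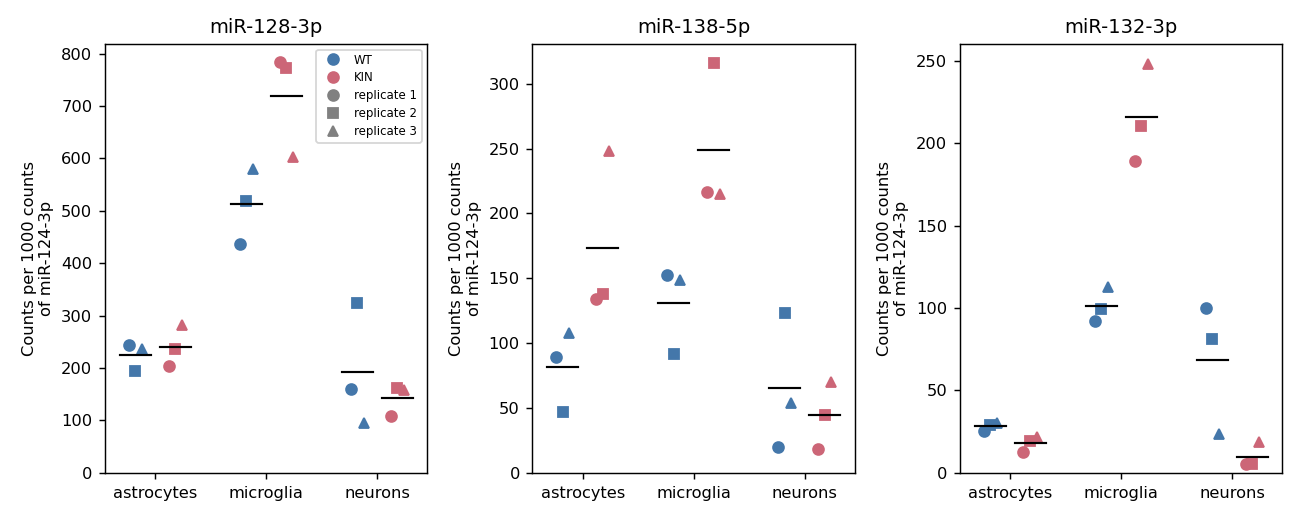
Counts of miR-128-3p, miR-138-5p and miR-132-3p per 1000 counts of miR-124-3p in the same library (vertical axes, linear from 0) by fraction, with colour for genotype, symbol shape for replicate number and a black line at the mean of 3 libraries. The KIN and WT libraries are apart for miR-132-3p in all 3 fractions, for miR-138-5p in astrocytes and microglia, and for miR-128-3p in microglia.

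Whether the KIN effect differed between fractions was tested in a fit of all 18 libraries, and none of the 6 miRNAs was called in any of the 3 comparisons. Among all 8204 features 0.146% were called for microglia against astrocytes, 0% for neurons against astrocytes (749 at an unadjusted p of at most 0.05) and 1.23% for neurons against microglia. For miR-124-3p the effect in neurons exceeded that in microglia by 1.43 ± 0.63 (edgeR adjusted p = 0.362), and scaled to mature miRNA counts alone this was 2.07 and called (edgeR adjusted p = 0.0421). For miR-132-3p the effect in neurons was below that in microglia by -2.49 ± 0.88 (edgeR adjusted p = 0.238) and below that in astrocytes by -1.57 ± 0.85 (edgeR adjusted p = 0.598). For miR-138-5p the effect in neurons was below that in astrocytes by -1.93 ± 0.76 (edgeR adjusted p = 0.536). The single call of miR-124-3p in microglia is therefore not shown to be particular to microglia: against astrocytes its effect differed by -0.95 ± 0.62 (edgeR adjusted p = 0.865).

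Read pools at the loci followed the mature miRNAs between fractions, though each hairpin contains its mature sequence and is not separate evidence. The hairpins of the 3 miR-124 genes stood at 93.1 to 100.3 CPM on average in WT astrocytes, 3.74 to 5.10 CPM in WT microglia and 6.34 to 8.18 CPM in WT neurons. Of the 9 hairpins, 8 were called lower than in WT astrocytes in WT microglia and the same number in WT neurons. Of all features, 19.3% and 18.5% were called lower in these comparisons. Mir212 was the exception in both (-1.59 ± 0.76 in microglia, edgeR adjusted p = 0.127). Hairpins of the same miRNA share its mature sequence, so their calls are not separate results. Mir128-1 gave 2932 counts over all libraries and Mir128-2 337, and Mir138-1 gave 814 and Mir138-2 382. The host transcript Mir124-2hg did not follow its hairpin: it stood at 20.3 ± 6.17 CPM in WT astrocytes, 37.6 ± 20.4 CPM in WT microglia and 41.2 ± 5.35 CPM in WT neurons (SD, n = 3), and was called in no comparison. Mir124a-1hg did follow (96.0, 6.39 and 9.69 CPM on average), but its annotated exon contains the hairpin, so its reads could be those of the hairpin. An exon of Mir124-2hg contains its hairpin as well. Each host was counted from a single transcript, and whether that transcript holds the exon was not checked. The cause of the contrast between the hosts was not tested. The genes that host miR-128, R3hdm1 and Arpp21, together reached at most 8.91 CPM in any library.

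Over the 18 libraries the levels of the 6 miRNAs rose and fell together to unequal degrees, as a description in which the 3 fractions and their miRNA content are shared by all points. On the log2(CPM + 1) scale Pearson's r was 0.97 between miR-128-3p and miR-138-5p, 0.91 between miR-124-3p and miR-128-3p, 0.80 between miR-132-3p and miR-212-3p and 0.81 between the miR-124 arms. Among 322 other mature miRNAs with at least 100 counts, those most like miR-124-3p were miR-9b-3p (r = 0.98), miR-127-3p (0.97) and miR-92b-3p (0.96). Those most like miR-128-3p were miR-129-1-3p (0.99), miR-136-5p (0.98) and miR-376b-5p (0.98), and miR-129-1-3p also came first for miR-138-5p (0.98), before miR-34b-3p (0.98) and miR-135a-5p (0.97). miR-132-3p was closest to miR-598-3p (0.92), miR-1249-3p (0.91) and miR-129-1-3p (0.90), and miR-212-3p to miR-1249-3p (0.75), miR-1291 (0.74) and miR-3102-3p (0.69). For miR-124-5p, which had 91 counts in all, they were miR-667-3p (0.89), miR-9-3p (0.89) and miR-9-5p (0.89).

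Most of a list of 12 other miRNAs enriched in neurons were called lower in WT microglia than in WT astrocytes. In this comparison 10 were called lower and 1 higher, with a median log2 fold change of -3.07, against -0.28 over mature miRNAs. In WT neurons against WT astrocytes 6 of 12 were called lower and none higher. The median of the list there, -2.69, was close to that of all 362 mature miRNAs tested (-2.66). That comparison therefore did not set the list apart from mature miRNAs as a class. The exception in microglia was miR-326-3p (1.15). Between WT neurons and WT microglia the list showed no common direction: of 9 tested, miR-384-5p was called higher in neurons (2.59 ± 0.73, edgeR adjusted p = 0.0265) and miR-326-3p lower (0 counts in all 3 neuron libraries against 53.3 to 83.8 CPM in microglia), with a median of 0.095. Summed, the 12 stood at 348 to 691 CPM in WT astrocytes, 74.0 to 130 CPM in WT microglia and 26.4 to 141 CPM in WT neurons, so that the last of these overlapped with microglia. Between KIN and WT only 1 of the 12 was called in astrocytes, miR-488-3p (1.51 ± 0.40, edgeR adjusted p = 0.0398, median of the list 0.13). Of all 418 mature miRNAs tested there, 56 were called. None of the 9 tested in microglia (median -0.92) and none of the 6 tested in neurons (median -0.61) was called in edgeR.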

How the data were processed

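Small RNA libraries (18, in 6 groups of 3 named by the titles) were analysed. The authors trimmed reads with Cutadapt 4.6 (minimum length 20), placed them with Bowtie2 2.4.4 first on mature miRNAs, then on other RNA classes of mm39, and counted with HTSeq 2.0.2 without strand. The deposited values are raw counts per feature; collapsing by molecular identifiers is not stated for these libraries, so intervals cover counting error only. The 36 columns of other per-sample values and the authors' fold changes and p-values were not used. Features with at least 5 counts in 2 libraries were fitted with edgeR 4.0.16 (TMM, quasi-likelihood, Benjamini-Hochberg) in R 4.3.3, after a check on simulated data. Alternatives were DESeq2 1.42.0, 2 other scalings, no filter, single libraries left out, the replicate number as a block and another set of libraries. All 6 miRNAs were named in every comparison, with the 3 miRNAs most like each and the called members of the 12-miRNA list. The miRNAs and gene lists were chosen with earlier results of these data known. Same-numbered WT neurons and astrocytes deviated together (r = 0.139, 0.312 and 0.109). Some libraries of different numbers did so as well, such as neuron replicate 3 with astrocyte replicate 1 (r = 0.156). The number was therefore not shown to pair them, and the values reported come from fits without it.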

Additional observations from a re-analysis of the deposited data

How the results depend on the processing

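Of 720 values of the 6 miRNAs under an alternative, 657 kept their direction and their side of the threshold, 38 changed sign, 18 lost a call and 7 gained one. Some settings gave no value because a miRNA fell below the count minimum, such as miR-132-3p in KIN against WT neurons without WT replicate 1 or 2. All 38 changes of sign were of values not called in the report, and the cause was not tested. Depth limits miR-124-5p and miR-212-3p in microglia and neurons, where 3 counts or fewer per library were common, and miR-132-3p and miR-138-5p in neurons.

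The number of the 6 miRNAs called was 2 for KIN against WT in astrocytes with scaling to mature miRNAs and 1 with no filter on low counts, in place of 0. For KIN against WT in microglia, in place of 1, it was 0 with library totals, 0 with the replicate block and 0 in 1 fit of all 18 libraries, and ran from 0 to 2 when a library was left out. For WT neurons against WT astrocytes it was 3 with scaling to mature miRNAs, in place of 5, and 3 to 5 when a library was left out. For WT neurons against WT microglia it was 1 with scaling to mature miRNAs and 1 in the fit of all 18 libraries (miR-124-5p, which then entered the test), in place of 0, and 0 to 1 when a library was left out. For the difference of the KIN effect between neurons and microglia it was 1 with scaling to mature miRNAs, in place of 0.

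With scaling to mature miRNAs the sign changed for miR-124-5p in WT neurons against WT astrocytes (0.95), for miR-128-3p (0.86), miR-138-5p (1.38) and miR-132-3p (1.47) in WT neurons against WT microglia, for miR-124-3p (-0.042) and miR-124-5p (0.0079) in KIN against WT neurons, and for the difference of the KIN effect of miR-128-3p between neurons and astrocytes (0.48) and of miR-138-5p between neurons and microglia (0.24). miR-124-5p in KIN against WT neurons also changed sign with DESeq2 (0.043), no filter (0.13), the replicate block (0.054) and the fit of all 18 libraries (0.080). So did miR-124-3p in WT neurons against WT microglia with no filter (-0.12), the difference of the KIN effect of miR-124-5p between microglia and astrocytes with DESeq2 (0.13), and that of miR-128-3p between neurons and microglia in a fit of the 12 libraries of both fractions (-0.11).

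When a library was left out, values that crossed 0 ran, for KIN against WT in astrocytes, from -0.60 to 0.26 (miR-124-3p) and -0.43 to 0.21 (miR-128-3p), and in neurons from -0.32 to 0.45 (miR-124-3p), -0.29 to 0.10 (miR-124-5p), -1.06 to 0.69 (miR-128-3p) and -1.58 to 0.19 (miR-138-5p). For WT neurons against WT microglia they ran from -0.041 to 0.71 (miR-124-3p), -1.60 to 0.14 (miR-138-5p) and -1.22 to 0.036 (miR-132-3p). For differences of the KIN effect they ran from -1.73 to 0.75 (miR-124-5p, microglia and astrocytes), -0.45 to 0.95, -0.054 to 1.72 and -1.15 to 1.04 (miR-124-3p, miR-124-5p and miR-128-3p, neurons and astrocytes), and -0.47 to 1.54 and -1.34 to 0.67 (miR-128-3p and miR-138-5p, neurons and microglia). The log2 ratio of miR-132-3p to miR-212-3p, KIN minus WT, was 0.60 in astrocytes (0.19 to 1.61) and 0.18 in microglia (-0.54 to 1.42), and that of the miR-124 arms was 0.60 in astrocytes (0.47 to 0.70).

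The replicate number was not shown to pair KIN with WT libraries: same-numbered libraries deviated together at r = -0.01, 0.01 and 0.10 in astrocytes, -0.17, -0.24 and 0.19 in microglia and -0.29, -0.04 and -0.09 in neurons. With the number as a block the call of miR-124-3p in microglia was lost (-1.20, edgeR adjusted p = 0.117) and 49 features were called there in place of 215; no other call of the 6 miRNAs changed. For the differences of the KIN effect the number was used as a block and, chosen after the data were seen, so was the number within genotype; for microglia against astrocytes 53 and 85 features were called, in place of 12, and for none of the 3 differences was any of the 6 miRNAs called. Over all features the number called ran, with other settings and with a library left out, from 159 to 1494 and 41 to 1527 for KIN against WT in astrocytes (466 in the report), 49 to 426 and 0 to 940 in microglia (215) and 0 to 75 and 0 to 52 in neurons (0). It ran up to 3104 in WT neurons against WT astrocytes (1698) and 3074 against WT microglia (1446), and down to 911 and 867 with a library left out. For the differences of the KIN effect it ran from 0 to 111 and 0 to 102 (12), 0 to 6 and 0 to 2 (0), and 41 to 197 and 15 to 282 (101), in the order of the report.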

Other observations

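The opposite arms of the same loci, miR-128-1-5p, miR-128-2-5p, miR-138-1-3p, miR-138-2-3p, miR-132-5p and miR-212-5p, were scarce. Summed, they stood at 2.23 to 9.55 CPM in WT astrocytes, 2.69 to 5.30 CPM in KIN astrocytes and at most at 1.53 CPM in any library of the other fractions, and 1 of the 6 had no count at all. Between genotypes 2 of them were tested in astrocytes, and neither was called in edgeR. Marker miRNAs of other cells were also present in the fractions. The erythroid miRNAs miR-451a, miR-144-3p and miR-486a-5p summed to 66.8 to 303 CPM in WT neurons and 43.7 to 76.8 CPM in KIN neurons, against 26.7 to 47.0 CPM in WT astrocytes, 25.9 to 61.0 CPM in KIN astrocytes, 17.3 to 22.2 CPM in WT microglia and 28.6 to 131 CPM in KIN microglia, where replicate 2 lay above every KIN neuron library. The endothelial arms miR-126a-3p and miR-126a-5p summed to 346 to 563 CPM in WT astrocytes and 5.78 to 29.6 CPM in WT neurons. The microglial miRNAs miR-142a-3p, miR-142a-5p and miR-223-3p summed to 2835 to 5914 CPM in microglia, 10.2 to 48.5 CPM in astrocytes and 42.9 to 377 CPM in neurons.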
